A study of Mus musculus with 12 samples.

Results

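Transcripts of 9 genes of the complement system were followed in mouse muscle that expressed the human long noncoding RNA *FRAIL1*: *C1qa*, *C1qb*, *C1qc*, *C1s1*, *C4b* and *C3*, which carry the cascade forward, and *Cd55*, *Cd59a* and *Serping1*, which restrain it. They were chosen by name, with earlier results of these data known. They were found by NCBI Gene ID among the 27179 genes counted, and all 9 were among the 15502 that passed the expression filter. The samples were 12 tibialis anterior (TA) muscles of male wild-type C57BL/6N mice, obtained at 6 to 8 weeks of age. In each of 6 mice, 1 TA received 10 μg of empty pcDNA3 plasmid (Control muscles) and the TA of the other leg 10 μg of plasmid with full-length human *FRAIL1* behind the CMV promoter (*FRAIL1* muscles), and both were taken on day 7. Both groups were injected with hyaluronidase and electroporated, so Control muscles are not untouched muscle, and CMV is active in many cell types. Poly(A)+ RNA of the whole muscle was sequenced. *FRAIL1* itself has no mouse gene and was not among the genes counted.

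Complement is a cascade of plasma and tissue proteins that marks particles and cells for removal. In the classical pathway C1q binds its target, the protease C1r activates the protease C1s, and C1s cleaves C4 and C2. The resulting enzyme cleaves C3, which leads to opsonins, chemoattractant fragments and the membrane attack complex. Host cells are protected by CD55 (decay-accelerating factor), which takes apart the enzymes that cleave C3, by CD59, which blocks the attack complex, and by C1 inhibitor, the product of *Serping1*, which removes C1r and C1s. Most complement proteins in blood come from the liver, whereas C1q is made mainly by macrophages and related myeloid cells, and injured muscle holds many such cells. The values here are of mRNA and say nothing of cleavage or deposition of the proteins.

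In the quasi-likelihood test of edgeR without a term for the mouse, the inhibitor *Cd55* was the 1 of the 9 transcripts that passed: it was 1.41-fold higher in *FRAIL1* muscles. The 3 C1q transcripts had larger folds, 1.5 to 1.62, and were higher in the *FRAIL1* muscle of all 6 same-numbered pairs. They did not pass that test, but did when the pairs entered it. Without the pairs they passed by DESeq2 and by limma voom with a quality weight per muscle (voom here). Group means of *C3*, *C4b*, *C1s1*, *Serping1* and *Cd59a* gave folds between 0.867 (*C3*) and 1.04 (*Serping1*), and none of these passed in any of these 4 fits. In edgeR, Benjamini-Hochberg adjusted over 15502 genes, 1 of 9 members had an adjusted p-value under 0.05, against 6.28% of all genes tested (4.43% higher and 1.85% lower in *FRAIL1* muscles). With the replicate number as a block there were 4 of 9, all higher, against 14.1% of all genes (7.48% higher). There were also 4 by DESeq2 and 4 by voom, against 14.4% and 11.8% of all genes. Because the members were chosen with earlier results of these data known, these shares are descriptions only. The median log2 fold change was 0.062 over the members, 6 of them above 0, and 0.0096 over all genes tested, of which 51.6% were above 0.

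*Cd55* (Gene ID 13136; GRCm38, chromosome 1, 130429798 to 130465009, minus strand) and the C1q genes carry most of what follows, and *C3* is the contrast. Their promoters are therefore shown, each 250 bases before and 50 after the start site of RefSeq on GRCm38.p6. Promoters were at hand for 6 of the 9 members (*C1s1* and *Cd59a* besides these 4). The stretch shown for *Cd55* lies inside the gene span given above, so its start site is not the outermost one.
Cd55 chr1:130462695-130462994, minus strand: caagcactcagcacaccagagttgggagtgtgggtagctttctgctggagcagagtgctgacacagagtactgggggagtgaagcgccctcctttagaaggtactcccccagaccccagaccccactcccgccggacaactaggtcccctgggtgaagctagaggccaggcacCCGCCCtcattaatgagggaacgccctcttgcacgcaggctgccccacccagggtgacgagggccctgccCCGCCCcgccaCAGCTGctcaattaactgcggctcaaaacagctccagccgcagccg
C1qb chr4:136886151-136886450, minus strand: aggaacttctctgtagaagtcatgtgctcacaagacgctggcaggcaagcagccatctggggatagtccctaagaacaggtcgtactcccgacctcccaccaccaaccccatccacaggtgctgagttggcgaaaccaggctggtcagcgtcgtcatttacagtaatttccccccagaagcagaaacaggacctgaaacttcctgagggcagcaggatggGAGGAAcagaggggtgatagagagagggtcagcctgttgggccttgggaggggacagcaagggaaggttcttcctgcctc
C1qc chr4:136892865-136893164, minus strand: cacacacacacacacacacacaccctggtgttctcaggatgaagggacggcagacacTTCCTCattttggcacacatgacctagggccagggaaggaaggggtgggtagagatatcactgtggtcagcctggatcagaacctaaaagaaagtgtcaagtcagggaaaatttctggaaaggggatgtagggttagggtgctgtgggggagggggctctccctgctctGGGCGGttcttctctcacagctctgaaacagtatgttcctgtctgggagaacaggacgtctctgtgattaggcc
C3 chr17:57228087-57228386, minus strand: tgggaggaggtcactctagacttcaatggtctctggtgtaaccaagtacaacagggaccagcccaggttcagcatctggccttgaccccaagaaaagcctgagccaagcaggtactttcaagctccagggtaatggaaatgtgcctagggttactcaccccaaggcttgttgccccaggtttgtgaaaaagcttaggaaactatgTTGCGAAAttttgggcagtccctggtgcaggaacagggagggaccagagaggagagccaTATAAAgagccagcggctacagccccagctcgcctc
Capitals mark matches, on either strand, to any of 8 motifs that were searched, and no match overlapped another. Counted from the start site, *Cd55* has the Sp1 GC box, GGGCGG, on the opposite strand at -77 and at -7, and an E-box, CAGCTG, at 5. *C1qb* has the PU.1-type ETS motif, GAGGAA, at -30. *C1qc* has that motif on the opposite strand at -193 and a GC box at -24. *C3* has the C/EBP motif, TTGCNNAA, at -45 and a TATA box, TATAAA, at 15. The AP-1 motif (TGANTCA), the STAT motif (TTCNNNGAA) and an interferon response motif were also searched. Among 32851 promoters of the same length, 35.7% held the GC box, 28.3% the PU.1-type motif, 16.3% the E-box, 13.6% the TATA box, 10.8% the C/EBP motif, 8.30% the STAT, 7.81% the AP-1 and 3.44% the interferon motif. These matches describe letters and not bound sites.

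**Figure D1:**
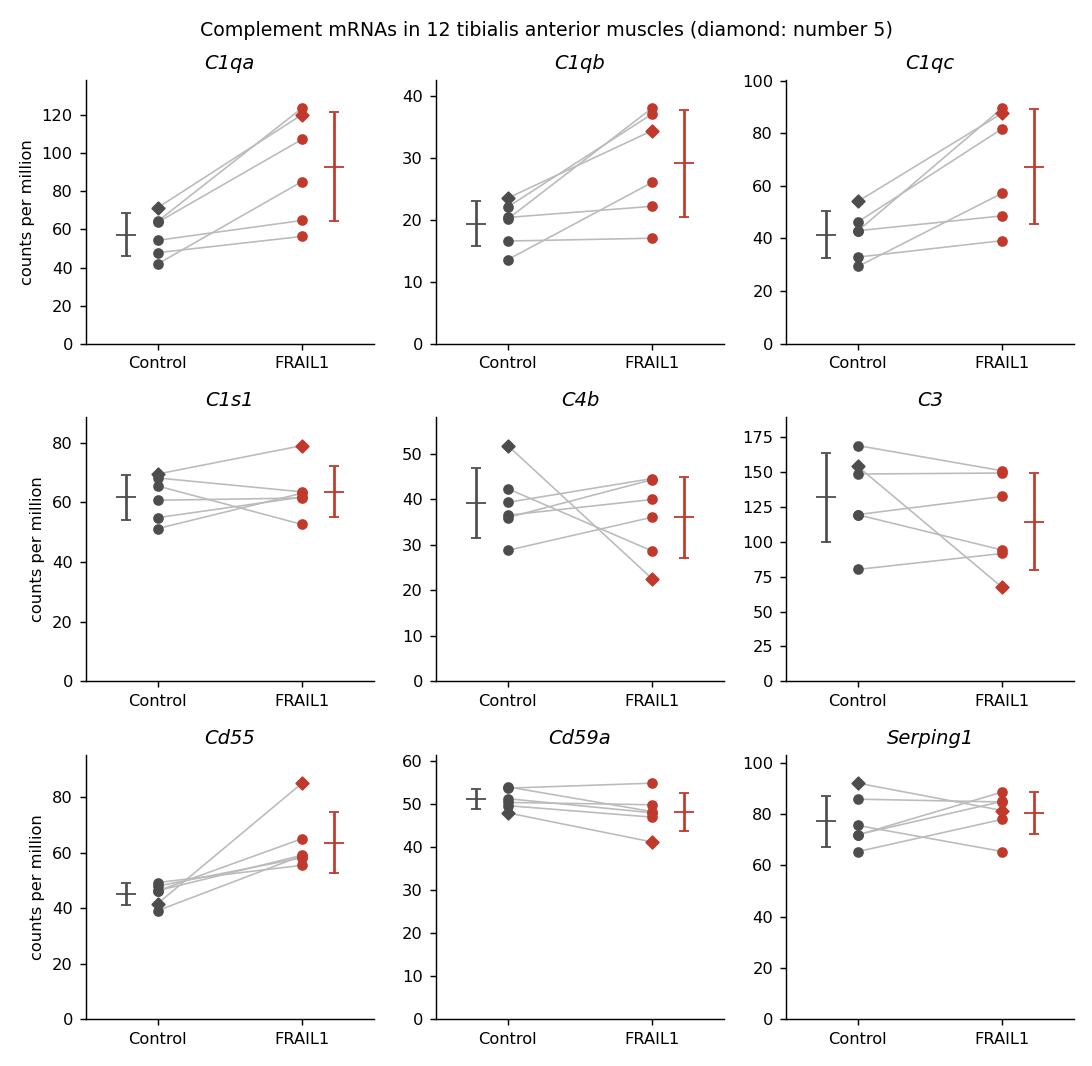
CPM of each of the 9 complement mRNAs (vertical axis, from 0) in Control and *FRAIL1* muscles (horizontal axis). Points are single muscles, lines join the muscles of 1 number, diamonds are the muscles numbered 5, and the crosses with bars at the sides are the mean and SD of 6. All *FRAIL1* points lie above all Control points for *Cd55* alone, and all 6 lines slope upward for *Cd55*, *C1qa*, *C1qb* and *C1qc*.

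The question put to the members was how recognition and protease transcripts stood against those of inhibitors. Values are given as CPM, counts scaled to a fixed library size after TMM normalization. *C1qa* (Gene ID 12259) encodes the A chain of C1q, the recognition molecule of the classical pathway. It measured 41.9 CPM in the lowest Control muscle, 59.0 at the median and 71.4 in the highest, and 56.3, 96.2 and 124 CPM in the *FRAIL1* muscles. *FRAIL1* muscles 4, 5 and 1 were high and 2 and 3 lay within the Control range, so the groups overlapped. The means were 57.2 ± 11.2 CPM and 92.9 ± 28.6 CPM (SD, n = 6 each), and the log2 fold change was 0.70 (SE 0.205, edgeR adjusted p = 0.0595). With the pairs as a block it was 0.66 (SE 0.11) with an adjusted p of 0.0105 in edgeR.

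*C1qb* (Gene ID 12260) encodes the B chain. Its lowest, median and highest CPM were 13.6, 20.3 and 23.5 in Control and 17.0, 30.2 and 38.0 in *FRAIL1* muscles, with the same 3 *FRAIL1* muscles highest and the groups overlapping. Its log2 fold change was 0.59 (SE 0.20, edgeR adjusted p = 0.0865, and 0.0254 with the block). *C1qc* (Gene ID 12262), which encodes the C chain, measured 29.4, 42.9 and 54.1 CPM in Control and 39.2, 69.5 and 89.6 CPM in *FRAIL1* muscles, of which 2 and 3 again lay within the Control range. The log2 fold change was 0.70 (SE 0.22, edgeR adjusted p = 0.0723, and 0.0136 with the block). The 3 genes lie side by side on chromosome 4 within 18.7 kb (*C1qb* 136880126 to 136886200, *C1qc* 136889801 to 136892936, *C1qa* 136895916 to 136898844 of GRCm38), with gaps of 3.60 and 2.98 kb. None of their exons overlapped another annotated gene, and none of their transcript was shared with another gene at 98% identity over 100 bases.

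The 3 C1q transcripts varied together. Within pairs the log2 difference of *C1qa* lay between 0.24 and 1.02, that of *C1qb* between 0.039 and 0.94 and that of *C1qc* between 0.18 and 1.06, and for all 3 the pairs numbered 2 and 3 showed the smallest differences. Over the 12 muscles, after the group means were removed, Pearson's r was 0.983 between *C1qa* and *C1qc*, 0.985 between *C1qb* and *C1qc* and 0.967 between *C1qa* and *C1qb*. These are correlations of values that share their library and scaling. The log2 ratio of *C1qa* to *C1qc* was 0.47 ± 0.091 in Control and 0.47 ± 0.068 in *FRAIL1* muscles (SD, n = 6 each), and that of *C1qa* to *C1qb* was 1.56 ± 0.092 and 1.67 ± 0.11.

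The C1q calls of the blocked fit depended on which pairs were in it. When both muscles of 1 number were left out in turn, the adjusted p of *C1qa* was 0.051 without number 1 and 0.056 without number 5, and 0.0063 to 0.0358 without any of the others (edgeR with the block). Those of *C1qc* were 0.0594 and 0.0748 without numbers 1 and 5 and 0.0080 to 0.0389 without the others. *C1qb* stayed under the threshold in 2 of the 6 such fits, without number 2 and without number 3. Without the block, all 3 were under it without *FRAIL1* muscle 3 (edgeR adjusted p = 0.0179, 0.0211 and 0.0228 for *C1qa*, *C1qb* and *C1qc*) and *C1qa* and *C1qc* without *FRAIL1* muscle 2 (0.034 and 0.0482). With all muscles and no block, their adjusted p-values were 0.00645, 0.0238 and 0.0105 by DESeq2 and 0.0203, 0.0436 and 0.0273 by voom, in the same order.

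Macrophage markers varied with the C1q transcripts. In RNA of whole muscle, more cells of a type and more RNA per cell cannot be told apart, and which of them holds here was not tested. Of 12 macrophage genes, all of them tested, 10 had a log2 fold change above 0 with a median of 0.56, and 1, *Cx3cr1* (the fractalkine receptor), passed the test (4.59 ± 0.498 against 8.79 ± 3.25 CPM, log2 fold change 0.94, adjusted p = 0.0217 by edgeR). This 1 of 12 stands beside 6.28% of all genes tested. With the block 4 of the 12 passed, by DESeq2 5 and by voom 3, against 14.1%, 14.4% and 11.8% of all genes. The summed level of the 12 macrophage genes ranged from 181 to 279 CPM in Control and from 217 to 596 CPM in *FRAIL1* muscles, and none of them was at 0. *Lyz2* (lysozyme), the highest of the list, measured 114 ± 22.4 and 194 ± 93.1 CPM (adjusted p = 0.107, and 0.0396 with the block, edgeR). *Cd163* and *Lyve1* were the 2 below 0 (log2 fold changes -0.21 and -0.12, adjusted p = 0.432 and 0.755 by edgeR).

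The mean log2 CPM of the 3 C1q genes was 5.14 ± 0.30 in Control and 5.76 ± 0.478 in *FRAIL1* muscles, and that of the 12 macrophage genes 3.43 ± 0.19 and 3.87 ± 0.388 (SD, n = 6 each). Taken against the macrophage mean, C1q stood at 1.71 ± 0.161 and 1.90 ± 0.157 on the log2 scale. That difference was higher in the *FRAIL1* muscle of 5 pairs and lower in 1, number 1. The deviations of *C1qa*, *C1qb* and *C1qc* from their group means followed those of the macrophage list with r = 0.917, 0.936 and 0.924 over 12 muscles, and 0.925, 0.934 and 0.932 over the 11 without *FRAIL1* muscle 5. This was not particular to macrophage genes. Over the 12 muscles r was 0.737, 0.647 and 0.657 with a lymphocyte list, and -0.654, -0.780 and -0.688 with an endothelial list. The 3 genes outside the members with the pattern most like *C1qa* over the 12 muscles were *Ms4a7* (r = 0.984), *Unc93b1* (0.974) and *Cxcl16* (0.973). *Ms4a7*, a membrane protein of macrophages, measured 6.52 CPM in Control and 16.4 CPM in *FRAIL1* muscles on average (log2 fold change 1.32, adjusted p = 0.0196 by edgeR).

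**Figure D2:**
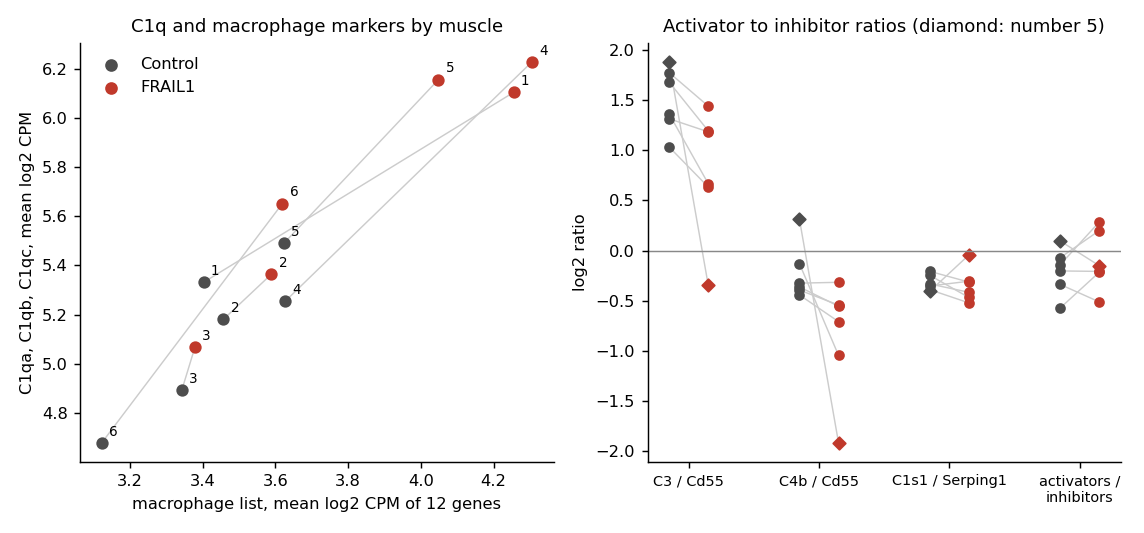
Left, mean log2 CPM of the 3 C1q genes (vertical) against that of 12 macrophage genes (horizontal) in 12 muscles, with muscle numbers and lines joining the muscles of 1 number. *FRAIL1* muscles 1, 4 and 5 stand at the upper right of all Control muscles. Right, log2 ratios of CPM (vertical) for *C3* to *Cd55*, *C4b* to *Cd55*, *C1s1* to *Serping1* and the mean of 6 activators to that of 3 inhibitors, Control at the left and *FRAIL1* at the right of each pair of columns. The ratio of *C3* to *Cd55* is lower in the *FRAIL1* muscle of all 6 pairs, and the other ratios are not.

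*C1s1* (Gene ID 50908, chromosome 6, 124530344 to 124542392) encodes C1s, the protease that C1r activates once C1q is bound. Its lowest, median and highest CPM were 51.2, 63.1 and 69.5 in Control and 52.6, 62.4 and 79.1 in *FRAIL1* muscles. The ranges overlapped, with *FRAIL1* muscle 5 highest, and the log2 fold change was 0.044 (SE 0.0947, edgeR adjusted p = 0.798). Without *FRAIL1* muscle 5 it was -0.029, so it has no settled direction. Of its exons 18.4% lie within *Gm16567*. Its relative *C1s2*, which is 96.0% identical over 2644 bases, was near the lower end of detection (0.386 ± 0.0984 and 0.413 ± 0.141 CPM).

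*C4b* (Gene ID 12268, chromosome 17, 34728139 to 34743902) encodes C4, the first substrate of C1s. It measured 28.8, 37.9 and 51.8 CPM (lowest, median and highest) in Control and 22.5, 38.0 and 44.5 CPM in *FRAIL1* muscles. Both extremes belonged to the muscles numbered 5, the Control muscle highest of all 12 and the *FRAIL1* muscle lowest, and the groups overlapped. The log2 fold change was -0.12 (SE 0.173, edgeR adjusted p = 0.691), and 0.078 (adjusted p = 0.778 by edgeR) without both muscles numbered 5. The related gene *C4a*, 96.0% identical over 5378 bases and sharing 9.82% of the *C4b* transcript at 98% identity, was listed at 0.443 ± 0.258 and 0.501 ± 0.187 CPM, and reads of the shared stretches may be missing from both counts because only uniquely mapped reads were counted.

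*C3* (Gene ID 12266, chromosome 17, 57203967 to 57228136) encodes the central protein on which all pathways converge, and had the highest CPM of the members. It measured 80.2, 134 and 169 CPM in Control and 67.3, 113 and 151 CPM in *FRAIL1* muscles. The groups overlapped, *FRAIL1* muscle 5 was the lowest of all, and the *FRAIL1* muscle was the higher of 3 pairs and the lower of 3. The log2 fold change was -0.21 (SE 0.22, edgeR adjusted p = 0.579). *C3* and *C4b* varied together, with r = 0.852 over the 12 muscles after removal of the group means and 0.783 over 11 without *FRAIL1* muscle 5. Both also followed the macrophage list without that muscle (r = 0.758 and 0.723) but less with it (0.519 and 0.437). With a neutrophil list, of which 2 genes were tested, r was 0.753 and 0.613 without that muscle and 0.680 and 0.536 with it. Of 6 genes that mark hepatocytes, the main source of both proteins in blood, 5 were too low to be tested in these muscles, *Alb* among them with a mean of 0 CPM in Control, and the highest, *Ttr*, measured 1.85 ± 0.772 and 1.51 ± 0.638 CPM. The genes most like *C4b* in pattern were *Ormdl2* (r = 0.932), *Xdh* (0.923) and *Ptger2* (0.922), none of which passed the test (adjusted p = 0.274, 0.218 and 0.622 by edgeR). Their mean CPM in Control and *FRAIL1* muscles was 1.73 and 2.11, 70.1 and 58.1, and 0.388 and 0.481. *Ptger2* was thus near the lower end of detection. These 3 were picked as the highest correlations among all genes tested outside the members.

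*Cd55* was the inhibitor that passed the test. Its CPM was 39.1 in the lowest Control muscle, 46.3 at the median and 49.3 in the highest, against 55.5, 59.0 and 85.1 in the *FRAIL1* muscles. The groups did not overlap, as for 4.88% of all genes tested (3.12% higher in *FRAIL1* muscles), and 1 of the 9 members. *FRAIL1* muscle 5 stood far above the other 5, which lay between 55.5 and 65.1 CPM. The means were 45.1 ± 3.895 and 63.7 ± 10.98 CPM (SD, n = 6 each), and the log2 fold change was 0.50 (SE 0.0968, edgeR adjusted p = 0.0124), the 138th smallest p-value of the 15502. Without *FRAIL1* muscle 5 it was 0.39 (adjusted p = 0.0027 by edgeR).

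Within pairs *Cd55* was higher in the *FRAIL1* muscle by 0.17 to 1.03 on the log2 scale, least for number 4 and most for number 5. It was under the threshold in 27 of 28 alternative fits, the exception being the blocked fit without both muscles numbered 1 (log2 fold change 0.48, adjusted p = 0.0633 by edgeR). The study names CD55 among molecules increased by *FRAIL1*. It cites together its displays of proteins, from other mice, and of mRNAs, from these muscles. Which display holds CD55 is not stated in its text. The counts used here are the study's own, so the call adds no independent evidence on *Cd55*. Its deviations followed those of C1q weakly (r = 0.411, 0.371 and 0.402 with *C1qa*, *C1qb* and *C1qc*, and 0.219 to 0.287 without *FRAIL1* muscle 5) and those of the macrophage list likewise (0.323, and 0.276 without it). The transcripts most like it over the 12 muscles were *Tpx2* (r = 0.971), *AW551984* (0.933) and *Kif11* (0.928). *Tpx2* and *Kif11* act in the mitotic spindle, and all 3 were highest in *FRAIL1* muscle 5, at 11.2, 11.2 and 9.01 CPM. Without that muscle their r was 0.933, 0.820 and 0.85. *Kif11* passed the test (3.33 and 5.46 CPM on average, adjusted p = 0.0431), and *Tpx2* and *AW551984* did not (adjusted p = 0.435 and 0.0715, edgeR).

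*Cd55* shares 15.4% of its transcript at 98% identity with *Cd55b* and *Gm16083*, and *Cd55b*, the neighbour 6.70 kb away, was too low to be tested (0.0248 ± 0.0263 and 0.095 ± 0.0599 CPM). *Cd59a* (Gene ID 12509, chromosome 2, 104095753 to 104115410) encodes the membrane inhibitor of the attack complex. Its lowest, median and highest CPM were 47.8, 50.7 and 53.9 in Control and 41.1, 48.0 and 54.7 in *FRAIL1* muscles. It varied least of the members in Control muscles (coefficient of variation 4.61%), the groups overlapped, and *FRAIL1* muscle 5 was lowest. The log2 fold change was -0.086 (SE 0.0634, edgeR adjusted p = 0.395), and *Cd59a* was lower in the *FRAIL1* muscle of 5 pairs and higher in 1. The neighbouring *Cd59b* stood at 1.91 ± 0.50 and 1.72 ± 0.323 CPM (adjusted p = 0.610 by edgeR).

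*Serping1* (Gene ID 12258, chromosome 2, 84765360 to 84775444) encodes C1 inhibitor, the secreted partner of C1s. It measured 65.4, 73.8 and 92.1 CPM in Control and 65.4, 83.1 and 88.7 CPM in *FRAIL1* muscles, nearly the same range. The log2 fold change was 0.062 (SE 0.0892, edgeR adjusted p = 0.688), with 3 pairs higher and 3 lower. *Serping1* and *C1s1* varied together (r = 0.719 over 12 muscles, and 0.856 over 11 without *FRAIL1* muscle 5), and the log2 ratio of *C1s1* to *Serping1* was -0.32 ± 0.0796 in Control and -0.34 ± 0.17 in *FRAIL1* muscles (SD, n = 6 each).

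**Figure D3:**
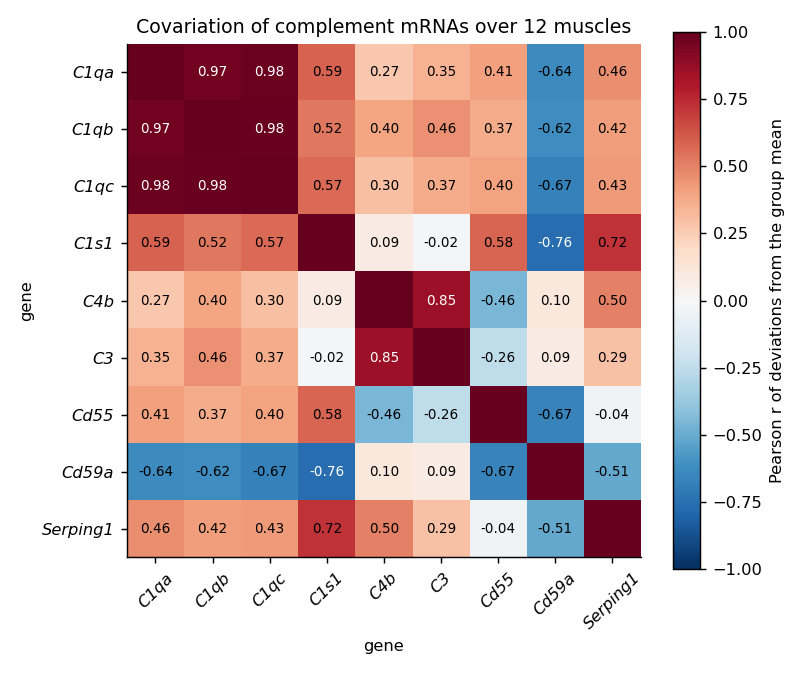
Pearson correlation (colour and printed value) between the 9 complement mRNAs (both axes) of log2 CPM deviations from the group mean over 12 muscles. The C1q genes form a block at 0.967 to 0.985, *C3* and *C4b* stand at 0.852 and *C1s1* and *Serping1* at 0.719, while *Cd59a* is below 0 with most of the others. Points share library and scaling.

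Set against each other, activators and inhibitors gave no single direction. The mean log2 CPM of the 6 activators was 5.60 ± 0.259 in Control and 5.86 ± 0.31 in *FRAIL1* muscles, and that of the 3 inhibitors 5.81 ± 0.0613 and 5.96 ± 0.0476 (SD, n = 6 each). The difference, activators minus inhibitors, was -0.20 ± 0.23 and -0.10 ± 0.295, and it was higher in the *FRAIL1* muscle of 3 pairs and lower in that of 3. Leaving *C3* and *C4b* out of the activators brought it to -0.47 ± 0.22 and -0.14 ± 0.362, higher in 4 pairs and lower in 2. As a ratio of single genes, *C3* to *Cd55* was 1.51 ± 0.324 in Control and 0.80 ± 0.642 in *FRAIL1* muscles on the log2 scale, and lower in the *FRAIL1* muscle of all 6 pairs. *C4b* to *Cd55* was -0.22 ± 0.284 and -0.85 ± 0.576, lower in 5 pairs. Without number 5 the means were 1.43 and 1.03 for *C3* to *Cd55* and -0.33 and -0.63 for *C4b* to *Cd55*. Both ratios have *Cd55*, the one of these 3 genes that passed the test, below the line. They were not tested, because the members were chosen with results of these muscles known.

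**Figure D4:**
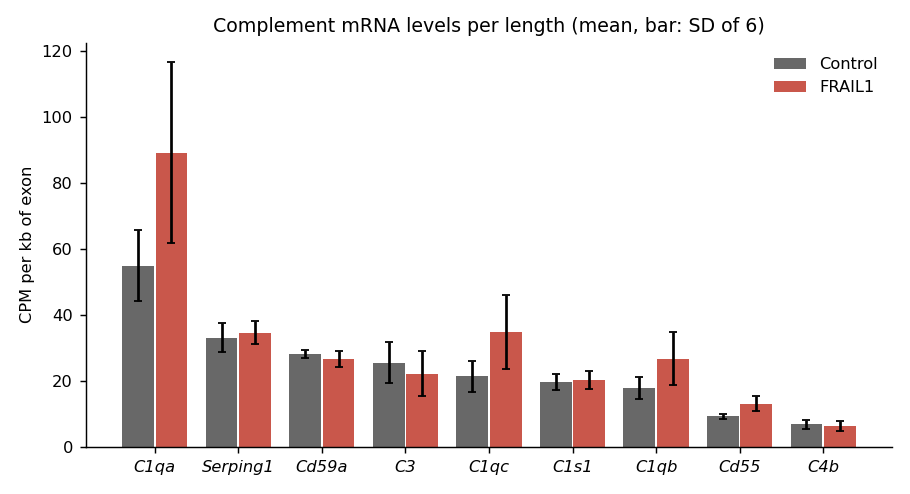
Mean CPM per kb of exon (vertical, from 0) of the 9 complement mRNAs (horizontal, in the Control order) in Control and *FRAIL1* muscles, with bars for the SD of 6 muscles. *C1qa* is highest and *C4b* lowest in both groups, and *C1qc* stands in the fifth place in Control and level with *Serping1* in *FRAIL1* muscles.

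Levels of different genes were compared per length, as CPM per kb of merged exons. In Control muscles *C1qa* was highest at 55.0 ± 10.7 CPM per kb (SD, n = 6), followed by *Serping1* at 33.2 ± 4.28, *Cd59a* at 28.2 ± 1.30, *C3* at 25.6 ± 6.22, *C1qc* at 21.5 ± 4.67, *C1s1* at 19.7 ± 2.37 and *C1qb* at 17.8 ± 3.37. *Cd55* at 9.29 ± 0.803 and *C4b* at 6.87 ± 1.35 were the lowest. Neighbours from *Serping1* to *C1qb* did not differ beyond their SDs, whereas *C1qa* stood above the rest and *Cd55* and *C4b* below. In *FRAIL1* muscles *C1qa* measured 89.3 ± 27.5, *C1qc* 34.9 ± 11.2, *C1qb* 26.8 ± 7.95 and *Cd55* 13.1 ± 2.26 CPM per kb, and *Cd55* and *C4b* (6.32 ± 1.56) stayed the eighth and the ninth. With the longest transcript as length, *Cd55* came to 14.4 and *C1qc* to 34.4 CPM per kb in Control muscles.

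**Figure D5:**
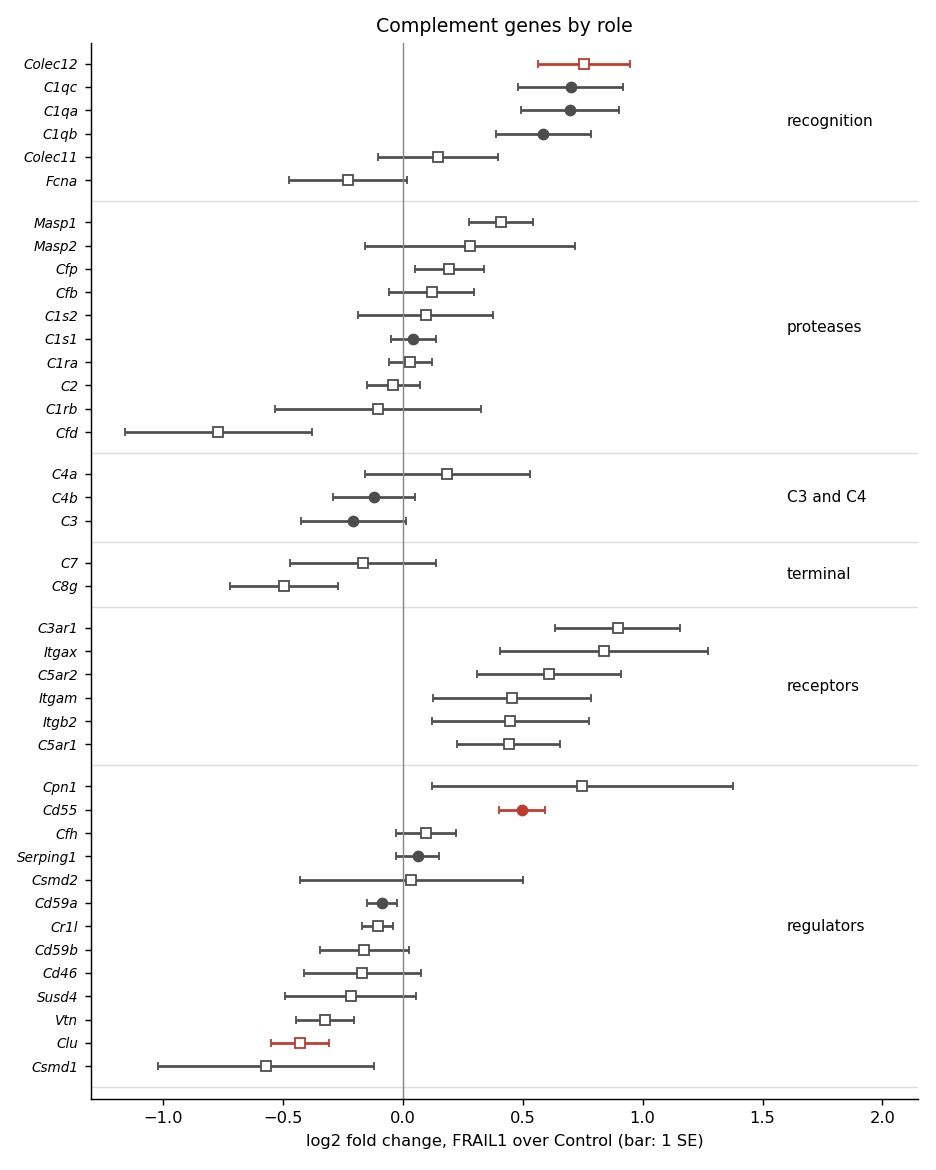
Log2 fold change, *FRAIL1* over Control (horizontal), with 1 standard error, for 40 complement genes (vertical) grouped by role. Filled circles are the 9 members, open squares other genes, and red marks an adjusted p under 0.05 by edgeR. All 6 receptors and 5 of 6 recognition genes lie right of 0, and both terminal genes and 8 of 13 regulators lie left of it.

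A wider list of 56 complement genes, the members among them, placed these values in the pathway. Of the 40 that could be tested, 24 had a log2 fold change above 0 (60% against 51.6% of all genes tested; median 0.079), and 3 passed: *Cd55* and *Colec12* rose and *Clu* fell. That is 7.5%, near the 6.28% of all genes.

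Among recognition molecules 5 of 6 tested lay above 0. The 3 C1q members, which varied together, are among these 5, so the count does not describe separate genes. *Colec12*, a membrane scavenger receptor of the collectin family, ranged from 4.49 to 8.71 CPM (median 5.90) in Control and from 8.21 to 16.8 CPM (median 9.05) in *FRAIL1* muscles, with *FRAIL1* muscle 5 far above the rest and Control muscle 6, at 8.71 CPM, within the *FRAIL1* range. Its log2 fold change was 0.76 (SE 0.193, edgeR adjusted p = 0.0373). The call held in 4 of 12 fits without 1 muscle, namely Control muscle 6 or *FRAIL1* muscle 2, 3 or 5, and its adjusted p over the 12 was 0.0233 to 0.0843. Of 10 proteases 7 lay above 0 and 0 passed in edgeR, with *Cfb*, factor B of the alternative pathway, at 54.9 ± 11.7 and 59.7 ± 13.8 CPM. At an unadjusted p under 0.05 there was 1 (edgeR), against 4297 of all 15502 genes tested. With the block, by DESeq2 and by voom, 1 each passed. *Masp1*, a protease of the lectin pathway, was named after its values were seen. It was higher in all 6 pairs (6.57 ± 1.18 and 8.73 ± 1.42 CPM) with an adjusted p of 0.0729, and 0.0224 with the block (edgeR).

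All 6 receptors tested lay above 0, with a median log2 fold change of 0.53, and 0 of them passed in edgeR. At an unadjusted p under 0.05 there was 1 (edgeR), against 4297 of all 15502 genes tested. With the block, by DESeq2 and by voom, 1 each passed. The receptor for the C3 fragment C3a, *C3ar1*, measured 13.5 ± 2.97 and 25.2 ± 10.3 CPM and was higher in all 6 pairs (log2 fold change 0.90, adjusted p = 0.0592, and 0.0138 with the block, edgeR). It too was named after its values were seen. The highest of the class was *Itgb2*, the shared beta chain of complement receptors 3 and 4, at 25.1 ± 6.82 and 34.3 ± 18.8 CPM (adjusted p = 0.398 by edgeR). *Itgb2*, *Itgam* and *Itgax* are carried by myeloid cells. For *Itgb2* 4 of the 6 pairs had the higher value in the *FRAIL1* leg, and for the mean of the macrophage list all 6 did. It was highest in *FRAIL1* muscles 1 and 4, at 62.5 and 53.5 CPM, as that mean was (4.26 and 4.31 log2 CPM). In *FRAIL1* muscle 5, the third highest for the list (4.05), it measured 23.2 CPM, within the Control range. The part of such cells was not tested.

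Of 13 regulators tested 5 lay above 0. *Clu* (clusterin, which binds the forming attack complex) fell from 81.5 ± 13.6 to 60.6 ± 9.36 CPM (SD, n = 6 each), and was lower in the *FRAIL1* muscle of all 6 pairs (log2 fold change -0.43, SE 0.12, edgeR adjusted p = 0.0485). Its ranges overlapped, 61.5 to 101 against 47.7 to 73.5 CPM, and the call held in 3 of 12 fits without 1 muscle, those without Control muscle 6, *FRAIL1* muscle 2 or *FRAIL1* muscle 3 (adjusted p over the 12, 0.0211 to 0.0878). *Vtn* (vitronectin, which also binds that complex) was lower in all 6 pairs, at 29.5 ± 4.91 and 23.6 ± 3.61 CPM, with an adjusted p of 0.104 and, with the block, 0.0159 (edgeR). With the block 9 of the 40 passed, 7 higher and 2 lower (22.5%, against 14.1% of all genes, 7.48% higher). Of these 9, 4 were members (*Cd55*, *C1qa*, *C1qb* and *C1qc*), which were chosen with results known. Among the 31 tested genes outside the members 5 passed with the block, 3 higher and 2 lower.

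The terminal components were scarce. Of 7 genes, *C7* (5.499 ± 1.77 and 4.90 ± 2.26 CPM, adjusted p = 0.760 by edgeR) and *C8g* were tested, and 0 passed in edgeR, by DESeq2 or by voom. At an unadjusted p under 0.05 there was 1 (edgeR), against 4297 of all 15502 genes tested. *Hc* (C5), *C6*, *C8a*, *C8b* and *C9* were not tested, with means of at most 0.102 CPM. The mannose-binding lectins *Mbl1* and *Mbl2* had 0 counts in the 12 muscles, and *Cfi* and *C4bp*, soluble inhibitors made by the liver, were too low to be tested.

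Other cell type lists also differed in places. Over all genes tested 6.28% passed in edgeR, 14.1% with the block, 14.4% by DESeq2 and 11.8% by voom. The summed level of 8 myofiber genes lay below the Control range in 5 of 6 *FRAIL1* muscles (173900 to 203130 CPM in Control, 132560 to 186400 CPM in *FRAIL1* muscles), with 1 of 8 passing, lower (2 with the block), and *Atp2a1* the highest at 48010 ± 1991 and 39768 ± 6417 CPM (adjusted p = 0.107 by edgeR). All 8 endothelial genes lay below 0 and 2 passed, *Tek* and *Flt1* (log2 fold changes -0.41 and -0.48, adjusted p = 0.0186 and 0.0326 by edgeR), while the highest, *Pecam1*, measured 114 ± 4.75 and 103 ± 12.6 CPM (adjusted p = 0.204). Of 12 fibroblast genes 9 lay above 0 and 0 passed in edgeR, with *Col3a1* at 731 ± 161 and 1293 ± 611 CPM (adjusted p = 0.0671 by edgeR). At an unadjusted p under 0.05 there were 4 (edgeR), against 4297 of all 15502 genes tested. With the block 0 passed, by DESeq2 3 and by voom 2. Without the block none passed among 2 neutrophil (highest *Csf3r*, adjusted p = 0.267), 7 lymphocyte (*Nkg7*, 0.994), 5 adipocyte (*Fabp4*, 0.066) and 5 satellite cell genes tested (*Sdc4*, 0.993, all by edgeR). At an unadjusted p under 0.05 there were 0, 0, 3 and 2 of these, by DESeq2 0, 0, 1 and 2, and by voom 0, 0, 1 and 0. With the block 0, 1, 1 and 2 passed in edgeR: *Cd4* (log2 fold change 0.74, adjusted p = 0.0127), *Fabp4* (-0.24, 0.0179), *Pax7* (0.58, 0.0345) and *Myf5* (0.64, 0.0486). Their part in the complement values was not tested.

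Total counts ranged from 45018389 to 59309210 in Control and from 44848322 to 60527385 in *FRAIL1* muscles, and the members' counts from 619 (*C1qb*) to 8316 (*C3*) per muscle, so counting error is small beside the spread between muscles for most members. This holds less well for *Cd59a*, with 2035 to 3195 counts and a coefficient of variation of 4.61% in Control muscles. *FRAIL1* muscle 5 stands apart from the other 11 (59.5 on the first principal component of log2 CPM, which held 32.4% of the variance), and *Cd55* and *C1s1* were highest and *C3*, *C4b* and *Cd59a* lowest in it.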

How the data were processed

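Poly(A)+ RNA of 12 TA muscles, 6 Control and 6 *FRAIL1*, was analysed. According to the authors' methods, paired-end reads were trimmed with Trimmomatic, aligned to mm10 with STAR 2.7.8a and assigned to genes with featureCounts 2.0.1 when uniquely mapped, and the deposited values are these raw counts per gene without normalization. The annotation and strand setting are not given in the sources used here. Of 27179 Gene IDs 25275 matched a symbol, and the rest held 0.280% of the counts.

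Genes were filtered with filterByExpr, normalized by TMM and tested by robust quasi-likelihood in edgeR 4.0.16 (R 4.3.3; log2 CPM with a prior count of 2; threshold 0.05). Lists are described by counts and medians. Lengths and overlaps came from GENCODE on GRCm38, promoters from RefSeq. Alternatives were a replicate block, other scalings and filters, DESeq2 1.42.0, limma 3.58.1 voom with a quality weight per muscle, and fits without single muscles. Leaving out pairs under the block was added after seeing the data. Muscles of 1 number were taken as those of 1 mouse, since the legs of each mouse were compared. Deviations of 15502 genes correlated within numbers at 0.254, 0.162, 0.282, 0.263, 0.0547 and 0.185, on average 0.20. The average between numbers was -0.040. Because the group means were removed, that value is nearly fixed by the average within numbers and is no separate comparison. No library was a copy of another. Without the replicate block, the p-values measure the spread between muscles of a group and treat the legs of 1 mouse as independent. With the block, they measure the spread of the differences within pairs. All of them describe these 6 mice.

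Members and lists were chosen with earlier results of these data known. Named were all members, wider-list genes past the threshold, the highest gene of each role and marker list, close paralogs and the 3 genes most correlated with *Cd55*, *C1qa* and *C4b*. *Masp1*, *C3ar1*, *Vtn*, *Cx3cr1*, *Cd163*, *Lyve1*, *Tek*, *Flt1*, *Cd4*, *Pax7* and *Myf5* were added after their values were seen. The authors' DESeq2 and exon usage results were not used here. The result of 1 marker list is not reported here.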

Additional observations from a re-analysis of the deposited data

Results flagged for a closer look

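In 94 groups of 6 muscles that were examined for a single value standing far from the other 5, 8 had one. Chance gives about 1 such value in 20 groups, but these groups are not independent, so the 8 are not read against that share. Of the 8, 6 belonged to *FRAIL1* muscle 5: *Cd55* at 85.1 CPM, *Colec12* at 16.8 CPM, the collagen *Col3a1* at 2531 CPM, and *Tpx2* at 11.2 CPM, *AW551984* at 11.2 CPM and *Kif11* at 9.01 CPM. These last 3 were chosen for following *Cd55* over the same muscles, so their values repeat that of *Cd55*. The other two were *Sdc4* at 30.1 CPM in Control muscle 3 and *C4a* at 0.964 CPM in Control muscle 5. *C4b*, the relative of *C4a*, was also highest in Control muscle 5. No cause of these values was tested.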

How the results depend on the processing

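*Cd55* was higher in *FRAIL1* muscles in every fit run and lost its call in 1 of 28. The number of genes called was 974, and 2186 with the replicate block, 2232 with DESeq2, 2898 with DESeq2 and the replicate block and 1836 with limma voom. It was 364 to 2110 without 1 muscle, and 292, 1908, 2004, 682, 2305 and 1045 without both muscles of numbers 1 to 6 in turn under the replicate block. The members called were 4 in each of the same 4 settings, 1 to 4 without 1 muscle, and 0, 4, 4, 3, 1 and 3 without the pairs. Those of the wider list were 9, 8, 10 and 8, then 1 to 7, and then 1, 8, 9, 4, 5 and 6. In the wider list the block added the calls of *C1qa*, *C1qb*, *C1qc*, *Masp1*, *C3ar1* and *Vtn* and removed none. Log2 fold changes near 0 changed sign. *C4b* was 0.0090 with voom, and 0.078 and, with the block, 0.073 without both muscles numbered 5. *C1s1* ranged from -0.029 to 0.093 without 1 muscle and was -0.0089 without both numbered 1 under the block. *Tpx2* was -0.026 without both numbered 5. *C1s2* was -0.0014 with voom, -0.092 and, with the block, -0.077 without both numbered 5, -0.0095 without both numbered 1 under the block, and -0.10 to 0.20 without 1 muscle. *Nkg7* was -0.013 with the block, -0.0031 with DESeq2's size factors, -0.0027 and -0.020 with DESeq2, and -0.14 to 0.12 without 1 muscle. *Sdc4* was -0.0058 with DESeq2's size factors, -0.0013 with TMM computed without mitochondrial and top genes, -0.00025 without a filter, -0.0057 and -0.0050 with DESeq2, and -0.021 to 0.036 without 1 muscle. The cause was not tested. Activators minus inhibitors was higher in *FRAIL1* muscles by 0.105 (log2), from 0.028 without *FRAIL1* muscle 4 to 0.187 without *FRAIL1* muscle 3; it was 0.031 and 0.045 without Control muscle 6 and *FRAIL1* muscle 1, 0.165 and 0.175 without Control muscle 5 and both numbered 5, 0.046 from summed CPM and 0.325 without *C3* and *C4b*. Each moved by less than 1 SD between muscles. Depth limits genes as low as *C4a*, *C1s2* and *Ptger2*.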
